A study of Mus musculus with 4 samples.

Results

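Cells matured with tumour necrosis factor (TNF) were compared with the day 7 stage of the same mouse dendritic cell culture protocol. The 2 arrays were taken by their titles from 4 in the series, 1 array for each group. Progenitors amplified in vitro from mouse bone marrow were differentiated into dendritic cells for 7 days, or for 10 days with TNF added for 16 hours. The other 2 arrays, of the amplified progenitors and of cells at day 10 without TNF, are given beside these as context. Total RNA was hybridised, and the labels state neither the mouse strain, the cytokines of the culture, nor how many mice or cultures stand behind an array. Every difference below is between 2 arrays, with no replicate, so no test was possible. In this comparison TNF and 3 further days of culture cannot be told apart; the day 10 array is given beside it as the state without TNF. Where a transcript was lower, fewer cells of a type and less RNA per cell cannot be told apart.

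Dendritic cells take up antigen in an immature state and, once stimulated, present it to T cells. Maturation raises peptide-loaded MHC and costimulatory molecules on the surface, switches chemokine receptors towards Ccr7, which leads to lymph nodes, and adds chemokines that attract T cells. TNF binds its receptors on the cell, and adaptors of the TRAF family pass the signal to kinases that release the transcription factor NF-kB from its IkB inhibitors. NF-kB in turn drives genes of inflammation and survival and the genes of its own inhibitors.

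Levels are given as scaled intensities, in units, after each array was brought to a common 75th percentile. Higher and lower mean a difference of at least 2-fold between the arrays, with values raised to a floor of 105 units. Fold values of single genes use a stricter floor of 428 units, so a gene dimmer than that on 1 array has only a lower bound ("at least"). Of 6110 genes above 105 units on either array, 882 (14.4%) were higher with TNF and 728 (11.9%) lower, together 1610 (26.4%). At 428 units the counts were 456 (10.3%) and 369 (8.34%) of 4423 genes. These shares of all genes are the background for the list counts below at the same floor. The median log2 ratio of TNF over day 7 was 0.04 for all genes, and the median given with each list is that of its members' log2 ratios. With no replicates, a scale of error was taken from genes with several probe sets. Over 674 genes the log2 ratios of the 2 brightest ones differed with an SD of 0.85, or 0.60 for a single probe set. Probe sets of a gene share the RNA and the scan, so this scale measures their disagreement only. It holds no variation between cultures or arrays.

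**Figure D1:**
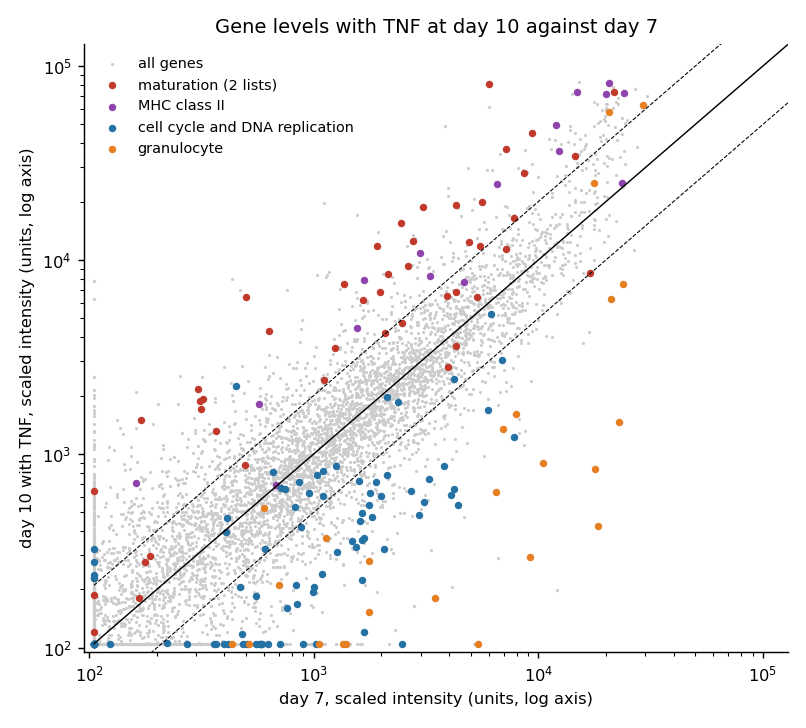
Scaled intensity of each gene on the day 7 array (horizontal, units, log axis) and on the array of day 10 with TNF (vertical, units, log axis); each point is 1 gene, values under 105 units are drawn at 105, the solid line marks equal levels and the dashed lines a 2-fold difference. Maturation and MHC class II genes lie above the upper dashed line in most cases, and granulocyte, cell cycle and replication genes below the lower one.

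The bright end of the day 7 array needs to be read with care. Its highest scaled value was 30560 units, against 89121 with TNF, 137313 at day 10 and 41044 in progenitors. Across probe sets the median log2 ratio stayed between -0.02 and 0.10 in every level bin up to 8192 units, but reached 0.20 from there to 16384 units, 0.86 in the next bin and 1.57 above that. The 9 spiked controls, bacterial transcripts that are added to the sample and not made by the cells, were brighter on the TNF array by a median of 2-fold (0.72 to 1.22 log2), at all levels. Control probes for 18S ribosomal RNA also differed, with the probe set for the 3′ part at 260 units in progenitors, 204 at day 7, 5637 at day 10 and 5058 with TNF. Scaling on the spiked controls would lower each ratio that the floor does not touch by 0.98 log2. It would move the median of all genes to -0.88 and leave 295 genes higher and 2732 lower. List medians under about that size would then be negative. The share of higher genes among those called was then 9.75%, against 54.8% in the scaling used, 49.1% after quantile normalization and 48.9% with intensities as deposited. The part of RNA preparation or scanning in the differences below was not tested.

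Genes above 16384 units on either array were therefore marked as bright. Those named are given with their call or ratio after quantile normalization, which forces the 4 arrays to one distribution ("log2 1.09, then 0.77" gives the ratio before and after it). Before it, 102 of these 184 bright genes (55.4%) counted as higher and 7 (3.8%) as lower. After quantile normalization 41 (22.3%) were higher and 24 (13%) lower. The call changed for 78 of them: 61 were no longer higher, and 17 became lower. Another 48 kept their call and its direction, 41 of them higher and 7 lower. The median log2 ratio of the bright genes was 1.10 before and 0.14 after. Among the 1501 called genes that were not bright, 1445 kept the call. Over all genes quantile normalization gave 770 higher (12.7%) and 799 lower (13.1%) of 6086.

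**Figure D2:**
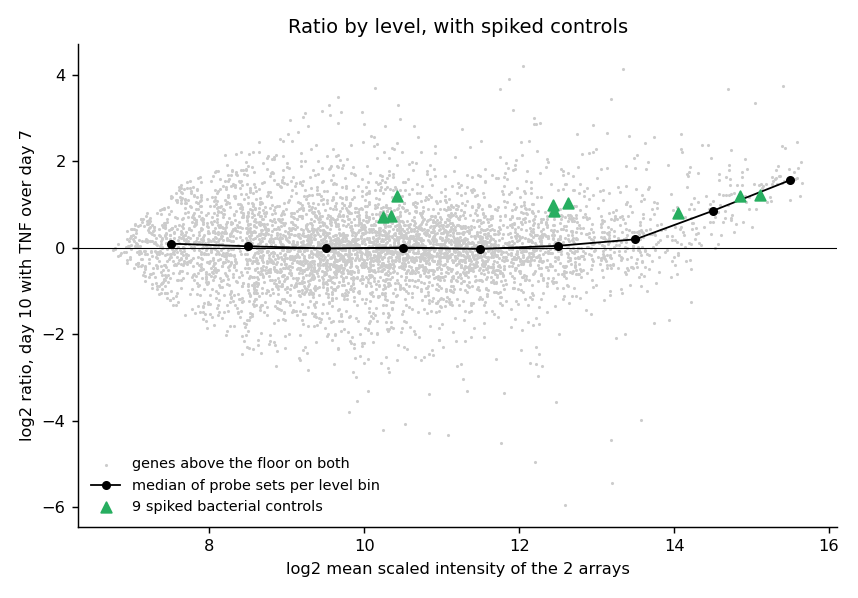
Log2 ratio of day 10 with TNF over day 7 (vertical) against the log2 mean scaled intensity of the 2 arrays (horizontal); grey points are genes above 105 units on both arrays, black points the median of probe sets in each level bin, and green triangles the 9 spiked bacterial controls. The black line stays near 0 up to 8192 units and climbs to 1.57 in the brightest bin, while the controls lie between 0.72 and 1.22 throughout.

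The day 7 culture already held maturation transcripts, and the TNF-treated cells held more of them. In the list of costimulatory and maturation genes of the cell surface, 12 of 19 members (63.2%) were higher with TNF and 0 lower (median 1.82). In the list of maturation genes that act inside the cell or are secreted, 21 of 28 were higher (75%) and 0 lower (median 1.73). At 428 units the counts were 11 of 16 and 20 of 25. After quantile normalization they were 11 and 17, with 1 surface member, Cd24a, then counted as lower, and the medians 1.72 and 1.39. The summed level of the surface list was 26988 units in progenitors, 54943 at day 7, 76266 at day 10 and 121910 with TNF. For the second list the sums were 56436, 117736, 250129 and 439347 units. Much of the surface sum in progenitors and at day 7 came from Cd24a, at 16616, 17042, 12094 and 8608 units in the same order, and Cd52. Cd52 read 6144, 14639, 27385 and 34513 units, and its log2 ratio of 1.24 was 0.52 after quantile normalization (chosen after its values were seen).

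The step from day 7 to day 10 and the step from day 10 to TNF share the day 10 array, and their medians are given side by side. The surface list had a median of 0.26 log2 for day 10 over day 7 and 1.16 for TNF over day 10. The inside and secreted list had 0.56 and 1.30. The MHC class II list had the opposite order, 1.58 and 0.00. These steps depend on the scaling, since the spiked controls themselves differed by a median of 1.50 log2 for day 10 over day 7 and by -0.50 for TNF over day 10. With scaling on these controls, an alternative added here after the data were seen, the steps were -1.12 and 1.66 for the surface list and -0.91 and 1.70 for the inside and secreted list. Those of the class II list were then 0.11 and 0.50, so that its order turned.

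Among surface genes, the costimulatory receptor gene Tnfrsf9 (4-1BB) stood at 34 units in progenitors, 500 at day 7, 2229 at day 10 and 6418 with TNF. It was 12.8-fold higher with TNF than at day 7, but a second, dimmer probe set read 178 and 218 units. Cd83, a maturation marker of dendritic cells, read -108, 3078, 4524 and 18714 units in the same order. It was 6.08-fold higher (log2 2.60, and 2.40 after quantile normalization), and its second probe set gave 2.99. Both Cd83 probe sets were already well above 428 units at day 7.

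Cd86, whose product engages Cd28 on T cells, read 299, 1115, 1042 and 2414 units, 2.17-fold higher with TNF. Day 7 already stood 1.90 log2 above progenitors, day 10 over day 7 was -0.10 log2, and the TNF array was the highest. A second Cd86 probe set read 37, 287, 219 and 1797 units, a log2 ratio of 2.64 for TNF over day 7. Cd80, its close relative, was at 162, 367, 471 and 1318 units, at least 3.08-fold higher. Cd40, the receptor for help from T cells, was at -12, 170, 146 and 1496 units, at least 3.49-fold higher. Unlike Cd83, neither Cd80 nor Cd40 passed 428 units at day 7.

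Il7r, the interleukin 7 receptor gene, read 105, 2451, 12734 and 15554 units and was 6.35-fold higher; in this scaling it was already high at day 10 without TNF. Icam1, an adhesion molecule for T cells, read 111, 2140, 1654 and 8462 units (3.95-fold). Ly75, the endocytic receptor DEC-205, read 283, 2629, 2103 and 9267 units (3.52-fold). For these last genes day 10 was no higher than day 7 and the TNF array stood above the other 3. Tnfsf4, which encodes the OX40 ligand, was at least 4.36-fold higher at 1868 units, and Cd1d1, which presents lipids to NKT cells, at least 4.46-fold at 1910 units. Of the members not called, Cd24a was 1.98-fold and Cd44 1.41-fold lower, and Il2ra, Tnfsf9 and Tnfsf11 lay under 428 units on both arrays (these 5 were chosen after their values were seen).

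Chemokine genes that attract T cells were among the brightest. Ccl17, a ligand of Ccr4 that attracts T cells, read -311 units in progenitors, 6021 at day 7, 37488 at day 10 and 80445 with TNF. It was 13.4-fold higher than at day 7, with a log2 ratio of 3.74, or 3.24 after quantile normalization. Ccl22, a second ligand of Ccr4, read 388, 9348, 15502 and 45053 units (4.82-fold; log2 2.27, then 1.73). Ccl5 read -261, 7161, 18707 and 37287 units (5.21-fold; log2 2.38, then 1.93). All 3 kept their call, and in this scaling their levels rose at each stage in turn. The day 10 over day 7 step was 2.64 log2 for Ccl17, 0.73 for Ccl22 and 1.39 for Ccl5. The spiked controls had a median of 1.50 for that step.

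The list of chemokines did not move one way as a whole. Of 14 members above 105 units, 8 were higher and 2 lower (median 1.30, or 0.81 after quantile normalization), while 9 of the 23 measured passed 428 units with TNF. Ccl6 was 3.39-fold higher at 28990 units and kept its call (log2 1.31). Ccl9 was 2.30-fold higher at 43243 units, but its log2 ratio was 0.02 after quantile normalization. The inflammatory chemokine gene Ccl4 went the other way, at -22, 2746, 1073 and 480 units, 5.72-fold lower with TNF. Its close relative Ccl3 was 2.02-fold lower, at 5654 units at day 7 and 2795 with TNF. Ccl3 and Ccl9 were chosen after their values were seen.

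Ccr7, the receptor for lymph node chemokines, read 30, 4296, 6296 and 19239 units, 4.48-fold higher than at day 7 and with a log2 ratio of 1.91 after quantile normalization. Over the list of chemokine, leukotriene and prostaglandin receptors, 6 of 17 members were higher and 5 lower (median 0.12, or -0.70 with scaling on the spiked controls). The prostaglandin E2 receptor gene Ptger4 was 3.92-fold higher, at -16, 1478, 1782 and 5788 units. The platelet-activating factor receptor gene Ptafr was at least 2.29-fold higher, at 153 units at day 7 and 981 with TNF, although another of its probe sets gave 0.53 log2. The chemokine receptor gene Ccr1 was 2.47-fold lower, from 5019 to 2028 units, and the leukotriene B4 receptor gene Ltb4r1 2.51-fold, from 3221 to 1284. Ltb4r1 stood at 5101 units at day 10, so that only the TNF array was low.

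Inside the cell, Fscn1, which bundles actin in the dendrites of mature cells, read 1058, 7778, 5284 and 16553 units. It was 2.13-fold higher than at day 7 but fell short of 2-fold after quantile normalization (log2 1.09, then 0.77). Il12b, a subunit of interleukin 12 whose product polarises T cells, lay under 105 units on all 4 arrays, from -504 to -78. Il12a and Il6 also lay under 105 units on both arrays, whereas Il1b was at least 5.03-fold higher, at 305 and 2153 units (these 3 were chosen after their values were seen).

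**Figure D3:**
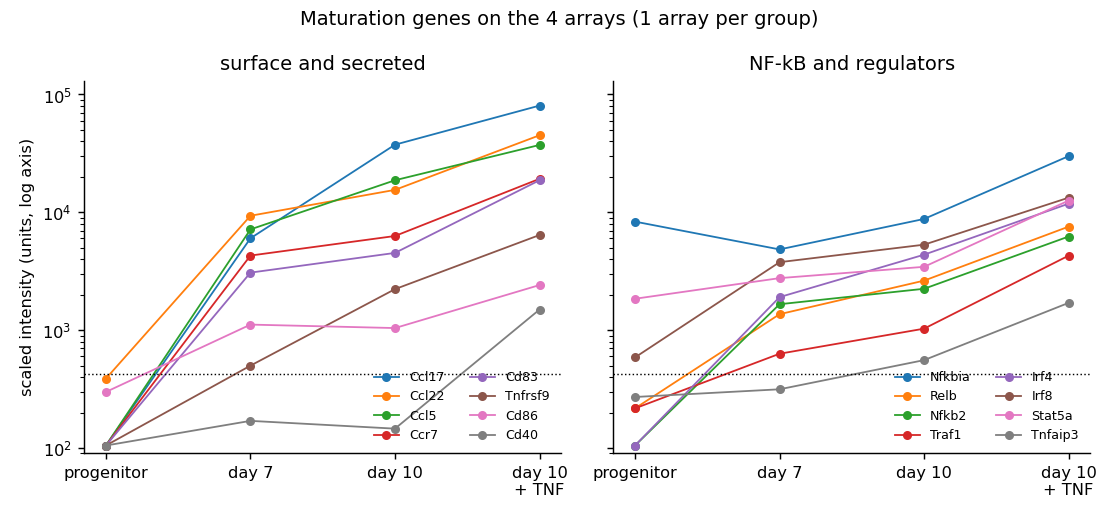
Scaled intensity (units, log axis) of 16 maturation and NF-kB genes on the 4 arrays, 1 array per group; lines only join the values of a gene, values under 105 units are drawn at 105, and the dotted line marks 428 units. Ccl17 climbs from under 105 units in progenitors to 80445 with TNF, and Cd40 and Tnfaip3 lie under the dotted line at day 7 and above it with TNF.

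The genes of NF-kB itself were the list with the highest median. Of 8 members above 105 units, 5 were higher and 0 lower (median 2.11, or 2.03 after quantile normalization and 1.13 with scaling on the spiked controls). Nfkbia, which encodes the inhibitor IkB-alpha and is a classic target of the pathway, read 8338, 4843, 8784 and 29967 units. It was 6.19-fold higher than at day 7 and kept its call (log2 2.63, then 2.24); a second probe set gave 1.48. Relb, a subunit needed for dendritic cell maturation, read 217, 1366, 2633 and 7559 units, 5.53-fold higher, but a second, dimmer probe set gave only 0.58 log2. Nfkb2, the precursor of its partner p52, read 99, 1660, 2245 and 6231 units (3.75-fold). Nfkbie, another inhibitor, read 308, 440, 1589 and 2177 units (4.95-fold). Bcl3, a nuclear member of the inhibitor family, was at least 2.03-fold higher, with 870 units on the TNF array and negative values on the other 3. Rela did not differ by 2-fold, at 7705 and 8205 units, and Rel lay under 105 units on both (chosen after their values were seen).

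Promoter sequences are shown for the 4 brightest higher genes of the NF-kB and maturation lists with a match to the NF-kB consensus so that the place of each match can be seen. The sequences are from RefSeq (GRCm38.p6), from 250 bases before to 50 bases after the transcript start, written 5′ to 3′ on the strand of the gene, with the matches in capitals. They lie at chr12:55492598-55492897 (Nfkbia, minus strand), chr19:46304487-46304786 (Nfkb2, plus strand), chr4:150927749-150928048 (Tnfrsf9, plus strand) and chr11:100860234-100860533 (Stat5a, plus strand).
Nfkbia: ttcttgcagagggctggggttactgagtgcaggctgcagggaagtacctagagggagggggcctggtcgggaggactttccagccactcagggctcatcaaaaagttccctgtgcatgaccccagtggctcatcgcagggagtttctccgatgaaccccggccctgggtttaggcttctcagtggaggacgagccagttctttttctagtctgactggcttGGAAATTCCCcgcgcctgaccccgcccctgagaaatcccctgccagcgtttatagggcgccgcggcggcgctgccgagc
Nfkb2: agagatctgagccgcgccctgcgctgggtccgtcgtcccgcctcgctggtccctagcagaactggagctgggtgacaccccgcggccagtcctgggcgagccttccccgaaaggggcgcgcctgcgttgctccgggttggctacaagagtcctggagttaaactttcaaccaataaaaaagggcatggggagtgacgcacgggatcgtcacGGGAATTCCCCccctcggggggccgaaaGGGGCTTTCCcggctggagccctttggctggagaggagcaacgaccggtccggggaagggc
Tnfrsf9: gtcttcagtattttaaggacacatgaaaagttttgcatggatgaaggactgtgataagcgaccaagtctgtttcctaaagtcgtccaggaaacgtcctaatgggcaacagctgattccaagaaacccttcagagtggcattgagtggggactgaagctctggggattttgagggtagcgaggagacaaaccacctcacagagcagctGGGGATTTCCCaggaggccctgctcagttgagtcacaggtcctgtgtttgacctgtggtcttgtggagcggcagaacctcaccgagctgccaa
Stat5a: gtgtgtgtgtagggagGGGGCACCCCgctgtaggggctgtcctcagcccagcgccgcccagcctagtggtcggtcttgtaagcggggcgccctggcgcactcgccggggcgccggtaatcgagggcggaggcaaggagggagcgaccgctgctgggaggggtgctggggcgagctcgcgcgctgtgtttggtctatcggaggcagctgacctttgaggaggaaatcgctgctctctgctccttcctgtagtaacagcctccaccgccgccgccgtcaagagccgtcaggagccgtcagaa
The run in capitals begins 29 bases before the start in Nfkbia, 43 before it in Tnfrsf9 and 234 before it in Stat5a. In Nfkb2 there are 2 such runs, which begin 39 and 11 bases before the start. A run can hold overlapping matches, from either strand. Both strands were searched for the consensus of 10 letters. It was found in 7 of 9 promoters of the NF-kB subunits and inhibitors (77.8%), in 11 of 34 of the NF-kB target list (32.4%), in 8 of 33 of the inside and secreted maturation list (24.2%) and in 2 of 11 of the surface list (18.2%). Among all 8358 promoters of 6545 measured genes with a table entry the share was 879 (10.5%). The promoters of the lists belong to 7, 27, 25 and 10 genes in that order. Some genes have several promoters, and the lists share some genes, so the shares are not independent. Many higher genes of these lists had no match, among them Ccl17, Ccl22, Irf4 and Icam1. Others, among them Ccl5, Ccr7, Cd83, Relb and Cd40, had no promoter entry and could not be searched. A match is a description of the letters and not evidence of binding.

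Genes that NF-kB is known to switch on were uneven. Of 30 members of the target list, 14 were higher and 3 lower (median 0.74, or -0.13 with scaling on the spiked controls). Junb, an AP-1 subunit, read 670, 883, 598 and 4931 units (5.58-fold) by its brightest probe set. A second Junb probe set read 235, 1236, 1803 and 2943 units (1.25 log2) and so was already above 428 units at day 7. Clec4e, a receptor for mycobacterial lipids, was at least 4.20-fold higher at 1799 units. Tnfaip3, which encodes the ubiquitin editing inhibitor A20, read 271, 315, 557 and 1705 units, at least 3.98-fold higher. Gadd45b, a stress-inducible gene, was 3.16-fold higher at 10062 units. Tnf itself read -110, 805, 191 and 418 units, at least 1.88-fold lower and short of a call. Mmp9, a matrix protease that is also a granulocyte gene, was at least 3.16-fold lower, and Il1a and Acod1, which makes itaconate, at least 4.52-fold and 4.35-fold higher (these 3 were chosen after their values were seen).

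On the TNF pathway above NF-kB, 9 of 25 receptors, ligands and adaptors were higher and 4 lower (median 0.51, or -0.47 with scaling on the spiked controls). Of the 2 receptors for TNF, Tnfrsf1b read 2132, 10673, 10620 and 8285 units, 1.29-fold lower, and Tnfrsf1a was 2.36-fold lower, at 3126 units at day 7 and 1326 with TNF. Traf1, an adaptor of TNF receptor 2, read 217, 631, 1030 and 4289 units, 6.79-fold higher. Traf5 was at least 5.82-fold higher, at -907 units at day 7, 1455 at day 10 and 2493 with TNF. Of other adaptors, Traf2 was 1.08-fold lower and Fadd 1.11-fold higher. For Traf6, 2 dimmer probe sets read 189 units at day 7 and 427 with TNF (1.18 log2), and 166 and 728 (2.13 log2). Ltb, which encodes lymphotoxin beta, was 5.56-fold lower, at 566, 3220, 1429 and 579 units, so that its peak was at day 7. The death receptor gene Fas was 2.72-fold higher and Casp8, the caspase it acts through, 2.31-fold lower. Fas, Casp8, Tnfrsf1a, Traf2, Fadd and Traf6 were chosen after their values were seen.

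Regulators of dendritic cell development split. Of 32 members above 105 units, 13 were higher and 6 lower (median 0.41, or -0.62 with scaling on the spiked controls). Irf4, a factor of conventional dendritic cells, read -229, 1907, 4370 and 11840 units, 6.21-fold higher. Irf8, its relative, read 587, 3774, 5314 and 13312 units, 3.53-fold higher. In this scaling the level of both rose at each stage in turn. The day 10 over day 7 step was 1.20 log2 for Irf4 and 0.49 for Irf8, against a median of 1.50 for the spiked controls. Stat5a, which acts downstream of GM-CSF, read 1847, 2764, 3448 and 12581 units (4.55-fold, with 1.95 log2 from a second probe set). Id2, an inhibitor of E proteins, read 7731, 13138, 26187 and 27368 units. It was 2.08-fold higher than at day 7 but 0.48 log2 after quantile normalization. Spi1, which encodes PU.1, was 1.38-fold lower, at 12494 and 9064 units.

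The nuclear receptor gene Pparg, a regulator of lipid handling, was at least 3.62-fold lower, at 1396, 1552, 1092 and 311 units. Batf3, another factor of conventional dendritic cells, was 3.01-fold higher, from 1828 to 5511 units, and Cebpb, a myeloid factor, 2.37-fold lower, from 26729 to 11258 units, with a log2 ratio of -2.51 after quantile normalization. Rara, a retinoic acid receptor gene, was 3.08-fold lower, and Klf4 2.02-fold lower. Batf3, Cebpb, Rara and Klf4 were chosen after their values were seen.

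Of 24 STAT, JAK, SOCS and receptor genes, 8 were higher and 0 lower (median 0.75, or -0.22 with scaling on the spiked controls). Socs2, a feedback inhibitor of cytokine receptors, was 3.53-fold higher at 19792 units and kept its call (log2 1.54). Jak2 was 4.17-fold higher, at 2029 and 8453 units, Stat4 4.25-fold, at 438 and 1863, and the interleukin 10 receptor gene Il10ra 4.19-fold, at 490 and 2056. In the interferon response list 6 of 18 members were higher and 0 lower (median 0.67, or -0.37 with scaling on the spiked controls). Gbp2, a GTPase induced by interferon, read -26, 1170, 2373 and 8660 units, 7.40-fold higher. Mx1 was at least 3.01-fold and Usp18 at least 2.79-fold higher, while Ifit1, Ifit2, Ifit3 and Isg15 lay under 105 units on both arrays (these last 4 were chosen after their values were seen).

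Most MHC class II genes were higher with TNF than at day 7 on the scaling used. Of 16 class II members above 105 units, 13 were higher (81.2%) and 0 lower (median 1.75). After quantile normalization 10 were higher and 1, the tetraspanin gene Cd9, lower (median 1.35). The summed level was 15247 units in progenitors, 149489 at day 7, 529553 at day 10 and 477523 with TNF. In this scaling the day 10 and TNF arrays both lay above day 7.

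H2-Eb1, a class II beta chain, read 391, 14807, 55859 and 73687 units, 4.98-fold higher than at day 7, and kept its call (log2 2.32, then 1.51). H2-Ab1, the beta chain of I-A, read 348, 11970, 46287 and 49614 units (4.14-fold; log2 2.05, then 1.48). H2-Aa, its alpha chain, read -492, 20686, 100111 and 81387 units (3.93-fold), but its log2 ratio of 1.98 became 0.65 and the call was lost. Cd74, the invariant chain, read 2380, 20060, 107887 and 71535 units (3.57-fold; log2 1.83, then 0.51), and lost its call too. The 2 chains of I-A belong to one heterodimer, and the one that was brighter at day 7 lost its call.

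The peptide editor genes lay lower on the scale. H2-DMb2 read 158, 1672, 5619 and 7915 units, 4.73-fold higher, log2 2.24 and then 2.12. H2-DMb1 was 3.75-fold higher at 24537 units (log2 1.91, then 1.58). Ciita, the master regulator of class II genes, was 3.18-fold higher, at 572 units at day 7 and 1818 with TNF (chosen after its values were seen). Ctss, the protease that trims the invariant chain, read 24027 units at day 7 and 72882 with TNF (3.03-fold), but its log2 ratio of 1.60 was -0.01 after quantile normalization.

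For MHC class I, 9 of 16 members were higher and 1 lower (median 1.23), while after quantile normalization only 4 were higher and the median was 0.66. The bright members lost their calls: H2-K1 (63728 units with TNF; log2 1.66, then 0.31; a second probe set gave 2.34, from 4312 to 21854 units) and B2m, the shared light chain (40658 units; 1.59, then 0.91). Members under 16384 units kept theirs. Tap1, the peptide transporter, was 3.42-fold higher, at 1817, 2752, 5427 and 9404 units. H2-M3, which presents formylated peptides, was 3.96-fold higher, at 635 and 2513 units. H2-M2, a nonclassical class I gene outside the list, read 1136, 3823, 11407 and 49164 units. It was 12.9-fold higher, among the 8 highest ratios of genes above 428 units on both arrays, and kept its call (log2 3.68, then 3.22).

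The 12 brightest genes whose call changed under quantile normalization were Actg1, Cd74, Cst3, Ctss, Fth1, Gnai2, H2-Aa, Rpl19, Rplp0, Rps24, Tmsb4x and Tpt1. Their levels at day 7 lay between 17650 and 30560 units, near the top of that array, and with TNF between 64093 and 81387. Of these 12, 4 changed sign: Actg1 (cytoplasmic actin, log2 1.20, then -0.52), Fth1 (ferritin heavy chain, 1.50, then -0.06), Ctss, and Tpt1 (1.61, then -0.02). For Gnai2, a G protein subunit (1.56, then 0.08), its 2 other probe sets gave 0.12 and 0.23. Ribosomal protein genes showed the same dependence as a list: 15 of 19 were higher and 0 lower (median 1.46), against 4 higher, 1 lower and 0.31 after quantile normalization. Rplp0 gave 1.86, then 0.45, while Rpl41 kept its call, at 6036 units at day 7 and 61442 with TNF (10.2-fold), although its probe set is one that reads related transcripts.

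Among lysosomal genes 11 of 34 were higher and 3 lower (median 0.05), against 7 and 3 and a median of -0.25 after quantile normalization. The aspartic protease gene Ctsd kept its call (3.77-fold; log2 1.91, then 1.38), and Psap, the saposin precursor, did as well (3.55-fold; 1.83, then 1.08), although its second probe set gave -1.25. Ctsb (1.44, then 0.15) and Cst3, a cysteine protease inhibitor known from dendritic cells (1.76, then 0.32), lost theirs. The genes of actin, adhesion and motility had 6 of 41 higher (14.6%) and 5 lower (12.2%), near the 14.4% and 11.9% of all genes. After quantile normalization the counts became 3 and 8, and the median turned from 0.17 to -0.25. Rhoc, a small GTPase, was 3.20-fold higher at 4895 units, although a second, dimmer probe set gave -0.39 log2. Talin, Tln1, was 2.52-fold lower at 2521 units. The profilin gene Pfn1 was 2.81-fold higher. Tmsb4x, which binds actin monomers, gave 1.67, then 0.35.

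**Figure D4:**
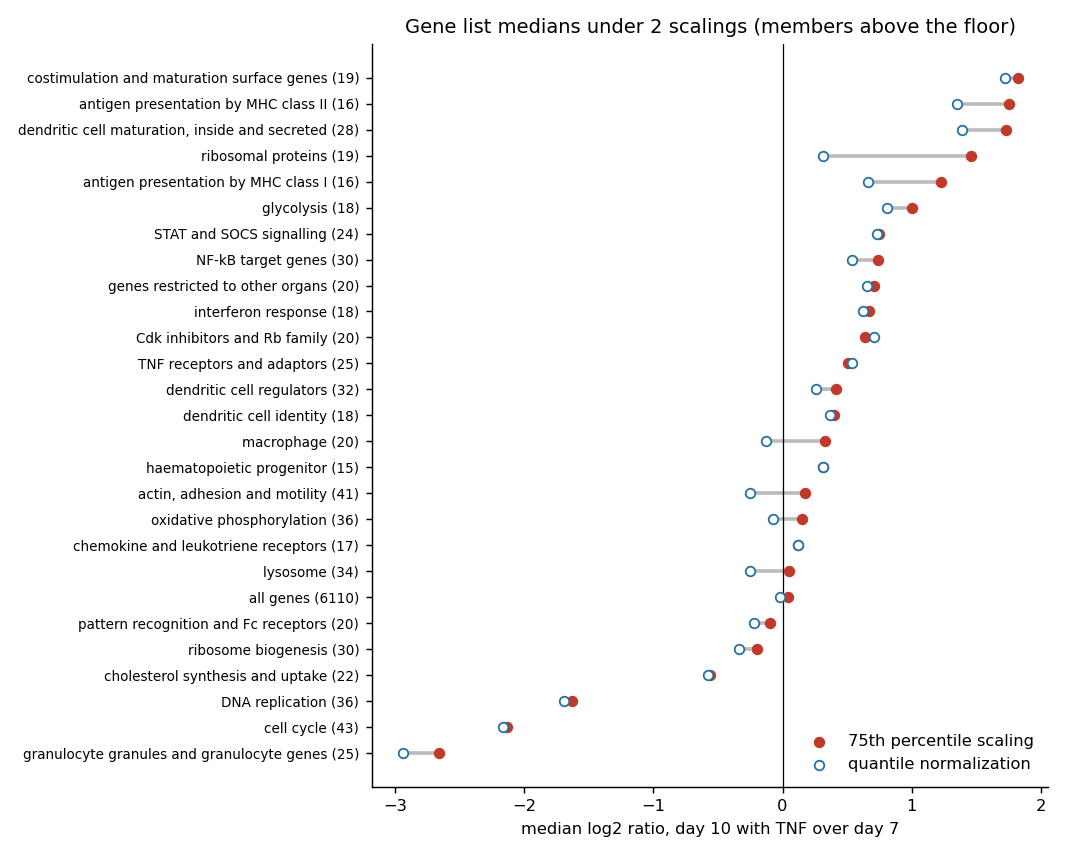
Median log2 ratio of day 10 with TNF over day 7 (horizontal) for all genes and for each list with at least 15 members above 105 units (vertical; number of such members in parentheses); filled red points use scaling to the 75th percentile, open blue points quantile normalization. Ribosomal proteins move the furthest between the scalings, from 1.46 to 0.31, and the granulocyte, cell cycle and replication lists lie at the lower end under both.

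Genes of antigen uptake did not move as a group. Of 20 pattern recognition, scavenger and Fc receptor genes, 2 were higher and 3 lower (median -0.10). Mrc1, the mannose receptor, read 314, 7033, 9009 and 2714 units, 2.59-fold lower than at day 7; it was highest at day 10 without TNF. Scarb1, a lipoprotein receptor, was 3.93-fold lower, at 8248, 9324, 5749 and 2371 units.

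The integrin gene Itgax, which encodes the dendritic cell marker CD11c, read 105, 6188, 21075 and 29065 units. It was 4.70-fold higher and kept its call (log2 2.23, then 1.84). Itgam, which encodes CD11b of myeloid cells, read 1669, 1769, 583 and 280 units and was at least 4.13-fold lower. Of the 18 dendritic cell identity genes above 105 units, 4 counted as higher and 1 as lower (median 0.40, or -0.58 with scaling on the spiked controls). Anpep was 2.08-fold higher, just past the threshold, and Plet1 3.28-fold at 37387 units (log2 1.72, then 1.20). Flt3, the receptor that drives dendritic cell development, was at 805 and 614 units, and a second probe set went the other way, at 442 and 721. The subset genes Xcr1, Cd8a, Cd4 and Itgae and the factor gene Zbtb46 lay under 428 units on both arrays (chosen after their values were seen).

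Macrophage markers were also present and mixed: 4 of 20 members were higher (20%) and 5 lower (25%), against 14.4% and 11.9% of all genes. Their median was 0.33, or -0.13 after quantile normalization. Their summed level was 71574 units in progenitors, 134114 at day 7, 332553 at day 10 and 250237 with TNF. Of its 25 measured members, 16 passed 428 units at day 7 and 15 with TNF. Csf1r, the receptor for M-CSF, read 983, 7257, 11354 and 12111 units, 1.67-fold higher and short of a call, while a second, dimmer probe set gave 1.60 log2. The elastase gene Mmp12 (2.79-fold; log2 1.48, then 0.43) and lysozyme, Lyz2 (2.80-fold; 1.49, then 0.07), lost their calls. Fabp5, which binds fatty acids, was at least 6.56-fold higher, at 198, 398, 4338 and 2810 units. The complement genes C1qa, C1qb and C1qc, defining for many tissue macrophages, were under 105 units on both arrays by their brightest probe sets (a second one for C1qb read 153 and 15), and Adgre1, which encodes F4/80, was 2.41-fold lower (these 4 were chosen after their values were seen). The part of macrophages in the results above was not tested.

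Granulocyte genes were among the lowest ratios of all. Of 25 members, 21 were lower and 2 higher (median -2.66); at 428 units 18 were lower and 2 higher. The 2 higher members, Lyz2 and Chil3 (the latter chosen after its values were seen), are also macrophage genes, and neither was higher after quantile normalization. All 25 members passed 428 units at day 7, against 12 with TNF. The summed level was 356759 units in progenitors, 232315 at day 7, 373287 at day 10 and 169121 with TNF. Without Lyz2 and Chil3 the other 23 members summed to 317683, 182354, 214693 and 47973 units.

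Among granule genes, Ltf, lactoferrin, read 15998, 18367, 13610 and 423 units, at least 42.9-fold lower with TNF than at day 7 (log2 -5.44, then -6.28). Ngp, neutrophilic granule protein, read 19177, 17864, 27554 and 831 units (21.5-fold lower, log2 -4.43, then -5.12). Camp, the cathelicidin gene, read 25153, 22894, 12520 and 1452 units (15.8-fold, log2 -3.98, then -5.05). The collagenase gene Mmp8 read 12689, 10495, 16640 and 893 units (11.8-fold). On these 4 genes the TNF array stood apart from the other 3. Lcn2, lipocalin 2 of the same granules, lay low on all of them, at 614, 600, 606 and 528 units (chosen after its values were seen). Pglyrp1, which binds peptidoglycan, was at least 21.4-fold lower, at 9172 units at day 7, 3210 at day 10 and 295 with TNF.

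Mpo, myeloperoxidase of primary granules, read 26660, 5381, 200 and -235 units and was at least 12.6-fold lower. Elane, neutrophil elastase of the same granules, read 27938, 6501, 999 and 636 units (10.2-fold lower). For both the day 7 value lay between the progenitor and the day 10 values. Csf3r, the receptor for G-CSF, was 4.90-fold lower at 1615 units, but its other probe sets gave 0.28 and -3.53. The median of the list was -0.43 log2 for day 10 over day 7 and -1.14 for TNF over day 10, or -1.91 and -0.63 with scaling on the spiked controls. The labels state no sort and no cell composition. The share of granulocyte precursors on each array was not measured, and its part in the other differences was not tested.

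**Figure D5:**
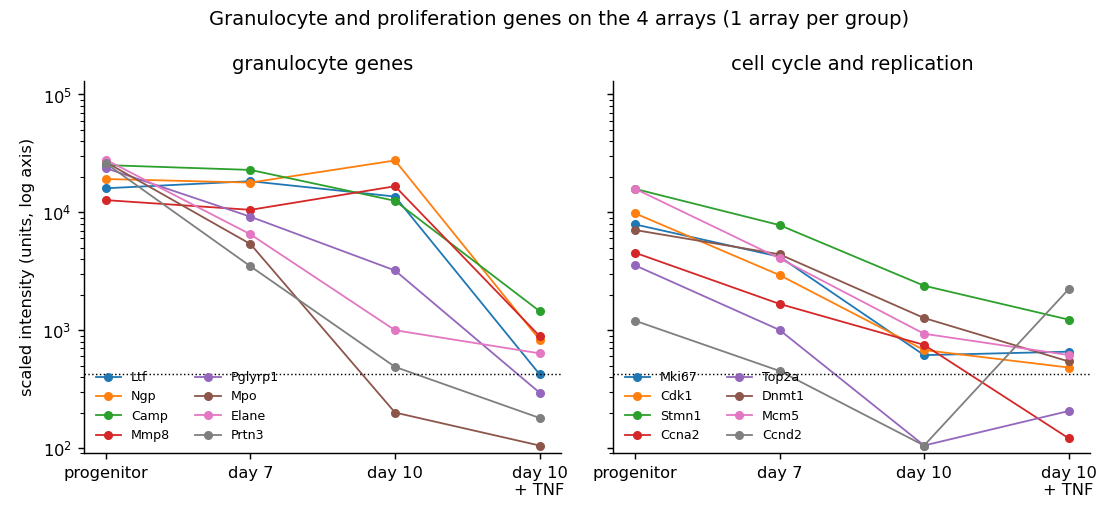
Scaled intensity (units, log axis) of 8 granulocyte genes (left) and 8 cell cycle and replication genes (right) on the 4 arrays, 1 array per group; lines only join the values of a gene, values under 105 units are drawn at 105, and the dotted line marks 428 units. Ltf, Ngp, Camp and Mmp8 stay above 10000 units until day 10 and drop with TNF, whereas most proliferation genes are low at day 10 already and Ccnd2 is high with TNF.

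Proliferation genes were lower with TNF than at day 7, and most of the named ones were also lower at day 10 without TNF. In the cell cycle list 34 of 43 were lower and 3 higher (median -2.13). Past the floor of 428 units these were 21 and 1 of 39, and the median was -1.06. In the replication list 22 of 36 were lower and 2 higher (median -1.63), or 14 and 0 of 28 (median -1.02) at 428 units. The cell cycle list had a median of -1.92 log2 for day 10 over day 7 and 0.00 for TNF over day 10, and the replication list -1.46 and -0.02. Quantile normalization gave the same 34 and 22 lower counts.

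Mki67, the proliferation marker, read 7899 units in progenitors, 4199 at day 7, 614 at day 10 and 657 with TNF, 6.39-fold lower than at day 7. Cdk1, the kinase of mitotic entry, read 9807, 2934, 678 and 482 units (6.08-fold lower). Stmn1, which destabilises microtubules, read 15813, 7790, 2383 and 1229 units (6.34-fold), and Kif23, a kinesin of cytokinesis, 4523, 3103, 1372 and 564 units (5.50-fold). Top2a, which untangles DNA, was at 1004 and 206 units, at least 2.34-fold lower. In replication, Dnmt1, the maintenance methyltransferase, read 7076, 4403, 1268 and 543 units (8.10-fold). Mcm5, a helicase subunit, read 15849, 4069, 932 and 615 units (6.62-fold), and Pclaf, a PCNA clamp factor, was at least 5.77-fold lower. The ribonucleotide reductase genes Rrm1 and Rrm2 were at least 4.82-fold and 3.85-fold lower.

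Ccnd2, which encodes cyclin D2, was the exception past 428 units: it read 1203, 451, 29 and 2226 units and was 4.94-fold higher with TNF. The inhibitor gene Cdkn1a (p21) read 1916, 9496, 13085 and 22384 units, 2.36-fold higher (log2 1.24, then 0.88), and its second probe set gave 3.24. Of 20 Cdk inhibitor, Rb family and antiproliferative genes, 7 were higher and 2 lower (median 0.64, or -0.33 with scaling on the spiked controls). Tob1, one of the antiproliferative genes, was 2.75-fold lower, and Rbl1, the Rb relative p107, 2.23-fold lower.

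The promoter of a mitotic gene from this list is shown because elements repeated among cell cycle promoters could be counted in it. Ccnb2, which encodes cyclin B2, read 12022, 5953, 1692 and 1679 units and was 3.55-fold lower (chosen by the rule for promoters). The sequence is from RefSeq (GRCm38.p6) at chr9:70421505-70421804, minus strand, from 250 bases before to 50 after the start, with the core of the cell cycle homology region, TTTGAA, in capitals.
Ccnb2: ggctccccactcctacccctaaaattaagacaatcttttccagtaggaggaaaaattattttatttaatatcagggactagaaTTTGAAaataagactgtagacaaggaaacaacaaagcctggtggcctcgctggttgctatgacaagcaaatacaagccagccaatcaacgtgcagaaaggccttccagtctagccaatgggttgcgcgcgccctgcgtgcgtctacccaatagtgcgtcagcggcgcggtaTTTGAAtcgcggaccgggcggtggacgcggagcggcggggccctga
The first run begins 167 bases before the start and the second just after it. On either strand, TTTGAA was found in 22 of 37 promoters of the cell cycle list (59.5%), against 13.1% of all promoters of measured genes, and in 7 of 49 of the replication list (14.3%). The CCAAT box was found in 28 of 37 (75.7%) and 29 of 49 (59.2%), against 37.1%. The E2F sequence TTTGGCGC was found in 1 of 37 (2.7%) and 6 of 49 (12.2%), against 0.933%. The motifs do not contain one another, and a match does not show that a factor binds.

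Metabolic lists moved in different directions. Of 18 glycolysis genes, 9 were higher and 1 lower (median 1.0); after quantile normalization the counts were 8 and 2 and the median 0.81, and with scaling on the spiked controls the median was 0.03. The glucose transporter gene Slc2a1 read 840, 872, 4416 and 3760 units, 4.31-fold higher than at day 7. Pfkp, a phosphofructokinase, read 2746, 2929, 5804 and 9731 units (3.32-fold). Pgk1 (3.67-fold; log2 1.88, then 1.44) and Tpi1 (3.17-fold; 1.66, then 1.23) were bright and kept their calls. The list had a median of 1.22 log2 for day 10 over day 7 and -0.24 for TNF over day 10, or -0.14 and 0.27 with scaling on the spiked controls.

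Of 22 genes of cholesterol and fatty acid synthesis and uptake, 9 were lower and 1 higher (median -0.56). Fdps, which makes farnesyl diphosphate, read 29167, 16851, 9290 and 4245 units, 3.97-fold lower, and kept its call (log2 -1.99, then -2.52). Fdft1 (squalene synthase) was 3.22-fold, Hmgcs1 2.40-fold and Fasn (fatty acid synthase) 2.21-fold lower. The desaturase gene Scd2 was 2.38-fold higher before quantile normalization only (log2 1.25, then 0.39). Oxidative phosphorylation genes had 3 of 36 higher and 0 lower, and 0 either way at 428 units. Ribosome biogenesis genes had 1 of 30 higher and 6 lower; the nucleolar gene Nop56 was 2.67-fold lower, at 4118, 1191, 714 and 445 units, and Myc at least 2.22-fold lower.

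Some of the most changed genes lay outside these programmes. Among genes above 428 units on both arrays, Serf2 had the highest ratio, at 434 units at day 7 and 8010 with TNF (18.5-fold), and it read 10925 at day 10. Actg2 (17.8-fold, log2 4.15, then 3.96), Actb (15.0-fold), Sprr1b (11.0-fold, log2 3.45, then 3.26) and Rpl41 followed it with chemokines and receptors named above. The names of these 4 probe sets mark them as shared among related transcripts or designed under relaxed rules, so the gene behind the signal is uncertain; a second Actb probe set gave 3.01 log2. Cfb, complement factor B, was at 42, 91, 167 and 7795 units, at least 18.2-fold higher and high on the TNF array only. Snrp1c-ps2, a pseudogene whose probe set also reads related transcripts, was at least 14.8-fold higher. Pmp22, a membrane protein of myelin, and Cox6a2, a cytochrome oxidase subunit known from muscle, were at least 5.85-fold and 5.86-fold higher.

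Among the largest decreases outside the granulocyte list, Ifitm6 read 17852, 12123, 6112 and 198 units, at least 28.3-fold lower. Plac8 read 24848, 6642, 988 and 292 units (at least 15.5-fold lower), and Hp, haptoglobin, 27530, 4667, 1356 and 473 units (9.87-fold). Hmgb2, a chromatin protein of dividing cells, was 7.77-fold lower at 1107 units. Lyl1, a helix-loop-helix factor of blood cells, was 6.67-fold lower at 1308 units. Of 15 progenitor genes 3 were higher (20%) and 4 lower (26.7%), against 14.4% and 11.9% of all genes. Myb, a progenitor regulator, read 8955, 1104, 248 and 60 units, at least 2.58-fold lower, and Tal1 was at least 3.01-fold higher at 1287 units.

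T and NK cell genes had 1 of 20 above 428 units at day 7 and 0 with TNF. Mast cell and basophil genes summed to 5441 units at day 7 and 5796 with TNF, and 0 of them differed 2-fold at 428 units. Eosinophil genes summed to 8409 and 4711 units, with Epx, eosinophil peroxidase, 2.46-fold lower. Plasmacytoid dendritic cell genes had 1 of 4 higher. B cell genes summed to 5627 and 7998 units, with 4 of 12 higher and 1 lower; the adaptor gene Blnk was at least 2.18-fold and Vpreb1 at least 3.16-fold higher. Erythroid and megakaryocyte genes summed to 20151 units in progenitors, 24303 at day 7, 27969 at day 10 and 47898 with TNF, with 2 of 10 higher and 2 lower. Car2 was 4.87-fold and the bright Hbb-bh1 5.38-fold higher (log2 2.43, then 2.16), although a second Hbb-bh1 probe set gave -0.30. Nfe2 was at least 6.51-fold and Gp9 at least 2.22-fold lower. Stromal genes had 1 of 11 higher (9.09%) and 2 lower (18.2%), against 14.4% and 11.9% of all genes, and 0 at 428 units. Of 20 genes restricted to other organs, 8 were higher (40%) and 3 lower (15%) at 105 units, against 14.4% and 11.9% of all genes. Their median was 0.71, or 0.25 at 428 units, where 3 of 12 were higher and 0 lower. At 105 units, 33.3% of the STAT and SOCS list were higher (median 0.75) and 33.3% of the interferon response list (0.67). The NF-kB target list had 46.7% higher (0.74). At 428 units the medians of these lists were 0.73, 0.73 and 1.30 in the same order. Among the 3 higher at 428 units were the testis gene Tnp1, at -8 units at day 7 and 1937 with TNF, and growth hormone, Gh, 2.03-fold higher. The name of this Tnp1 probe set marks it as designed under relaxed rules, and a second one read -18, -72, 61 and -6 units. The part of genes restricted to other organs in the counts above was not tested.

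Agreement between probe sets sets a limit on single genes. Of 102 genes whose brighter probe set differed 2-fold, the second probe set had the same sign in 80 (78.4%). At 428 units these were 40 of 48 (83.3%).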

How the data were processed

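RNA was measured on an Affymetrix mouse array, with 1 array for each of 4 groups. The authors deposited linear intensities, 1 for each probe set and array. The software, background method and detection calls behind them were not given in the sources used here. Of the 12654 probe sets, 22.8% to 24.3% on each array had a deposited intensity below 0. Signal over background limits the precision, since no replicate exists. The platform annotation gave 1 gene symbol to 10298 probe sets, several to 363 and none to 1993, and 10279 symbols were updated through the gene number. After leaving out 66 control probe sets and those without 1 symbol, 8220 genes remained, each read by its brightest probe set on average over the 4 arrays. For 893 of these its name marks a probe set that can read several related transcripts.

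The 75th percentiles of the arrays were made equal, by factors of 0.962 to 1.050. Low values were set to the 40th percentile over all arrays (105 units), or for single genes to the 60th (428 units), before log2 was taken. Alternatives were these floors and a lower one, quantile normalization, no scaling, loess, scaling on 9 spiked controls, means of probe sets, leaving out family probe sets, and a 3-fold threshold. On simulated data for TNF against day 7 with 8220 genes, 200 genes well above the floor were changed 4-fold. Of these, 196 were recovered past 2-fold, and 1.12% of such genes left unchanged were called. The simulated arrays had proportional noise below the scale of error, and no shift with level or in the spiked controls. These rates describe the procedure and are not error rates of the 2 real arrays. The 35 gene lists hold 971 genes, 776 measured, and a list's counts and median use members above the floor on at least 1 array.

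The genes named are the 8 highest and 8 lowest ratios above 428 units, the 5 brightest in each direction whose other side lay under it, up to 5 members of each list by size of ratio, the 12 brightest whose call changes under quantile normalization, and 32 set by name, 156 in all. Others are said to have been chosen after their values were seen. Members and lists were chosen with earlier results of these data known. Python 3.11.15, pandas 2.3.3 and statsmodels 0.14.6 were used.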

Additional observations from a re-analysis of the deposited data

How the results depend on the processing

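No paired analysis was possible because each group has 1 array, and for the same reason no array could be left out. The count of higher genes, 882, became 456 with the floor of 428 units, 403 at 3-fold and 295 with scaling on the spiked controls. The count of lower genes, 728, became 369, 326 and 2732 in the same order. Scaling on the spiked controls left 5 of 13 higher MHC class II members, 10 of 21 higher inside and secreted maturation members, 2 of 9 glycolysis members and 1 of 15 ribosomal protein members. At 3-fold, 5 glycolysis and 7 ribosomal protein members remained higher. Quantile normalization and loess each left 4 ribosomal protein members higher. The floor of 428 units left 21 of 34 lower cell cycle members and 14 of 22 lower replication members, since fewer genes can differ 2-fold above it. Among the named genes whose ratio was past 2-fold, those that changed sign were Actg1 (-0.52 after quantile normalization and -0.08 after loess), Ctss (-0.01), Fth1 (-0.06) and Tpt1 (-0.02) after quantile normalization. Over the 109 bright genes past 2-fold, 14 changed sign after quantile normalization, among them Chil3 (1.11, then -0.50), and over all 184 bright genes 59 did. The cause of these changes was not tested. Of 1233 alternative values for single genes, 969 moved by less than the scale of error, 259 by more, and in 5 a ratio past 2-fold changed sign. The median glycolysis step from day 7 to day 10, 1.22, was -0.14 with scaling on the spiked controls, a setting added for the steps after the data were seen. The count of bright genes whose call changes, 78, became 94 with bright set at 8192 units and was again 78 with quantile normalization of the 2 arrays alone.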

Other observations

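Some genes outside the rule, chosen after their values were seen, had a pattern that the groups above do not describe. Id1, an inhibitor of E proteins like Id2, read 5669 units in progenitors, 5157 at day 7, 2461 at day 10 and -25 with TNF, at least 12-fold lower than at day 7. Il18, an interleukin 1 family cytokine, read 80, 3326, 3349 and 319 units and was at least 7.77-fold lower. For Il18 day 7 and day 10 were alike and the TNF array was low. The control probe set for Fas read 655 units at day 7 and 2899 with TNF, a log2 ratio of 2.15, and the gene's own probe set was 2.72-fold higher.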
